A study of Mus musculus with 4 samples.

Results

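The regulators of the integrated stress response were followed in RNA-seq libraries of whole mouse islets at low and high glucose. The set holds 10 genes, the transcription factors *Atf4*, *Atf5*, *Ddit3*, *Cebpb* and *Atf3*, the phosphatase subunits *Ppp1r15a* and *Ppp1r15b*, the pseudokinase *Trib3*, the chromatin-associated protein *Nupr1* and the enzyme *Chac1*. They were named with earlier results of these data in view, and were found by their symbols among the 24157 symbols and lncRNAs of the deposited table. Where a symbol had several entries, the entry was selected by the highest mean level over the 4 libraries. This choice mattered for *Atf5* alone, whose entry with the higher mean was used (32.5 against 28.9 RPKM), while the repeated entries of *Atf4*, *Ddit3* and *Cebpb* held identical values.

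The islets came from male C57bl6 mice of 3 months of age and were pooled. They were kept overnight at 11 mM glucose, starved for 2 h at 2.8 mM glucose, and stimulated at 2.8 mM (LoGlu) or 16.8 mM (HiGlu) glucose. The series text gives 12 h of stimulation for both groups, but the sample labels give 2 h for LoGlu and 12 h for HiGlu. If the labels are right, glucose and time in culture cannot be told apart. No library was made at 11 mM or before stimulation, so a fall at HiGlu and a rise at LoGlu cannot be told apart either. The words fell, rose, lower and higher below mean HiGlu relative to LoGlu. There were 2 libraries per group, each made from total RNA of 100 islets of a single pool, so SDs and p-values measure the spread between these libraries and not between animals.

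When cells are short of amino acids or heme, sense viral RNA, or accumulate unfolded protein in the endoplasmic reticulum (ER), dedicated kinases phosphorylate the translation initiation factor eIF2. Bulk protein synthesis then slows, while messages with upstream open reading frames such as *Atf4* are translated more, and ATF4 with its bZIP partners switches on genes for amino acid supply, for feedback and, under lasting stress, for cell death. Beta cells make proinsulin in very large amounts and depend on the ER-resident kinase PERK, encoded by *Eif2ak3*. The libraries measured RNA, so neither eIF2 phosphorylation nor translation was observed.

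Promoters were searched for the sites that these factors are known to bind, because several members are textbook targets of ATF4 and CHOP. RefSeq promoters of build GRCm38.p6, from 250 bases before to 50 bases after each start, were found for 9 of the 10 genes, and *Ppp1r15b* had no entry. The core of the C/EBP-ATF response element, TGATGNAA on either strand, occurred in 4 of these 9 genes, whereas 4.51% of 27025 genes and 3.97% of 32851 promoters held it. The cAMP response element palindrome TGACGTCA occurred in 1 of the 9 genes, against 2.03% of genes and 1.79% of promoters. The C/EBP palindrome TTGCGCAA and the ER stress response element (CCAAT, then 9 bases of any kind, then CCACG) occurred in none of the 9, against 0.207% and 0.137% of genes, or 0.183% and 0.119% of promoters. No promoter of the set held more than 1 of these motifs. The sequences below show each match in capitals with its flanks, read 5′ to 3′ on the strand of the gene, and the first 4 carry the C/EBP-ATF core as its reverse complement.
*Nupr1*: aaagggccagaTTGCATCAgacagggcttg
*Atf3*: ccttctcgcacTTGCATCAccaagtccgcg
*Chac1*: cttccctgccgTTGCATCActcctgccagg
*Trib3*: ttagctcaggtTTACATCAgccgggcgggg
*Ppp1r15a*: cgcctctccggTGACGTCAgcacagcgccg

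These windows lie at chr7:126625562-126625591 on the minus strand for *Nupr1*, chr1:191183425-191183454 on the minus strand for *Atf3*, and chr2:119351038-119351067 on the plus strand for *Chac1*. The window of *Trib3* lies at chr2:152344028-152344057 and that of *Ppp1r15a* at chr7:45526262-45526291, both on the minus strand. The match starts 110 bases before the annotated start in *Nupr1* and in *Atf3*, 193 bases before it in *Chac1* and 12 bases before it in *Ppp1r15a*. In *Trib3* it covers bases 15 to 22 of the transcribed sequence. A match is a description of the letters only, and binding was not measured. Of the 4 genes with the C/EBP-ATF core, *Nupr1* and *Trib3* were at 28.9% and 24.1% of their LoGlu mean at HiGlu, *Atf3* was at 72.1% and *Chac1* at 89.2%. *Ddit3*, which was at 13.5%, held none of the motifs in this window.

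The deposited values are RPKM, the reads of a transcript scaled to its length and to the depth of the library. Low values come out as whole reads when the length is taken from the first to the last base of a gene, and rarely when only exons are counted, so each value is a level per kilobase of span. Depth recovered from the smallest steps of the values was between 50720000 and 60640000 reads, at which 1 read in a span of 1 kb is worth 0.0165 to 0.0197 RPKM. Pearson's r of log2 levels across transcripts was 0.980 between the libraries of either group and 0.927 to 0.939 between groups. The 7867 transcripts that averaged 1 RPKM or more were compared on the log2(RPKM + 0.5) scale with limma, and p-values were adjusted over all of them by the Benjamini-Hochberg method, with a threshold of 0.05.

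All 10 regulators were lower in both HiGlu libraries than in both LoGlu libraries. This was also so for 48.3% of the 7867 transcripts tested and for 38.2% of the 26272 entries with any read, while 22.2% of those tested had both HiGlu libraries above both LoGlu libraries. Of the 9 regulators tested, 7 passed the threshold, all of them lower at HiGlu, and *Cebpb* and *Chac1* did not pass it. *Atf3* lay under the minimum level and was not tested. Over all transcripts 33.4% passed the threshold, 22.8% lower and 10.7% higher. A mean level at least 2-fold lower at HiGlu was found for 2.20% of the transcripts tested and a level at least 3-fold lower for 0.496%, against 4 of the 9 regulators at either limit (*Ddit3*, *Trib3*, *Nupr1* and *Ppp1r15a*). These 4 had been singled out for the size of their fall, so they are described with no p-value and their number supports nothing by itself. They are also among the 7 past the threshold, so that count supports nothing by itself either.

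**Figure D1:**
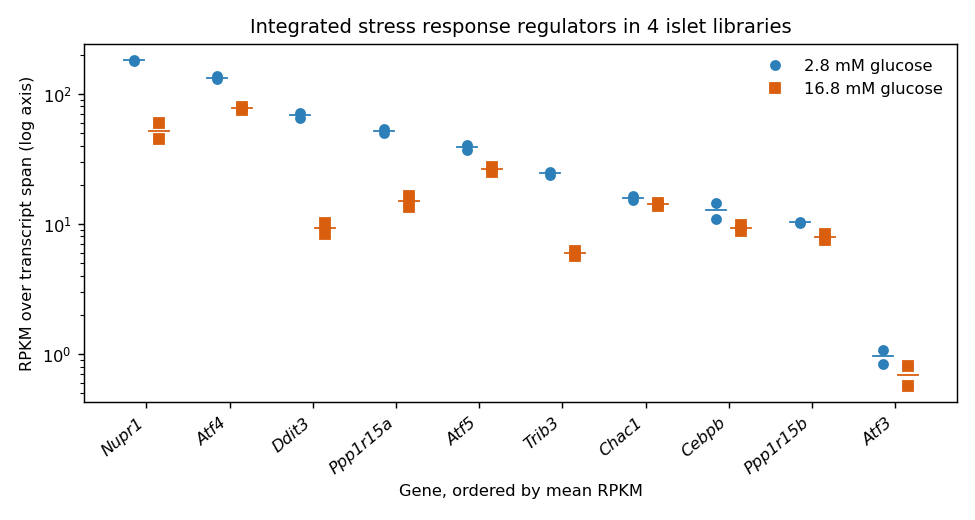
Level of each regulator in every library, as RPKM over the transcript span on a log axis, with genes ordered by their mean. Blue circles are the 2 LoGlu libraries (2.8 mM glucose), orange squares the 2 HiGlu libraries (16.8 mM glucose) and short lines the group means. The squares lie below the circles for all 10 genes, far below for *Ddit3* (68.4 against 9.22 RPKM) and close to them for *Chac1* (15.8 against 14.1 RPKM).

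The median log2 fold change (HiGlu over LoGlu) of all transcripts tested was −0.11, and it was −0.78 for the 9 regulators. The latter includes *Ddit3*, *Trib3*, *Nupr1* and *Ppp1r15a*, singled out beforehand for their fall, so it is a description only. Scaling bears on this background. When libraries were centred on their medians, 26.7% of transcripts were lower and 21.1% higher, and after quantile normalization 27.4% were lower and 20.0% higher. The share of higher transcripts among those past the threshold was 31.9% in the deposited values, 44.1% after median centring and 42.3% after quantile normalization. The fold changes of all 9 regulators stayed negative under both, from −2.75 for *Ddit3* to −0.08 for *Chac1* after median centring.

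The beta cell genes moved the other way. Of 8 beta cell markers, 6 rose at HiGlu and none fell (2 rose and none fell after quantile normalization), and their summed level was 20590 to 22940 RPKM in LoGlu and 41150 to 43900 RPKM in HiGlu. *Ins1* rose from 3092 to 10550 RPKM (mean of 2 libraries, log2 fold change 1.77, adjusted p = 8.55e-05) and *Ins2* from 17040 to 28710 RPKM (0.75, adjusted p = 0.00224). RPKM is relative to all reads of a library, so more reads of insulin leave fewer for other genes, and the part of this in the lower levels of the regulators was not tested. In whole islets, fewer cells of a type and less RNA per cell cannot be told apart.

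Markers of the other cells of the islet moved less or varied between replicates. None of the 5 alpha cell markers, 3 delta and PP cell markers, 7 acinar and duct cell markers, 2 macrophage and leukocyte markers and 1 stromal marker tested passed the threshold, though after median centring 2 alpha cell markers and 1 delta or PP cell marker were higher, and after quantile normalization 1 of each was. With libraries paired by replicate number, all 7 acinar and duct cell markers tested were higher at HiGlu, and 1 alpha cell marker was lower and 2 higher. The summed level of the 6 alpha cell markers was 1698 to 2217 RPKM in LoGlu and 1538 to 2172 RPKM in HiGlu, and that of the delta and PP cell markers was 1169 to 1549 and 1513 to 1831 RPKM. The 8 acinar and duct cell markers summed to 97.4 and 279 RPKM in the LoGlu libraries and to 235.5 and 486.5 RPKM in the HiGlu libraries, and the replicates of a group thus differed by at least 2-fold. The 4 endothelial markers summed to 1.65 and 2.54 RPKM in LoGlu and 2.00 and 2.88 RPKM in HiGlu, and the 4 stromal markers to 1.97 to 3.40 RPKM over all libraries. The 5 macrophage and leukocyte markers summed to 13.7 and 10 RPKM in LoGlu and to 14.2 and 10.01 RPKM in HiGlu. No marker was listed at 0 in a library. The part of exocrine RNA in the levels of the regulators was not tested.

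The kinases at the head of the response measured about 1 RPKM of span or less, which was not rescaled to exons. *Eif2ak3* (PERK, the kinase of ER stress) measured 1.13 and 1.13 RPKM in LoGlu and 1.20 and 1.06 RPKM in HiGlu, with overlapping groups, a log2 fold change of −0.00 ± 0.08 (SE, n = 2 per group) and an adjusted p of 0.978. The other kinases lay under the minimum level and were not tested. *Eif2ak1* (HRI, the heme-regulated kinase) averaged 0.401 RPKM in LoGlu and 0.308 RPKM in HiGlu, *Eif2ak2* (PKR, which senses double-stranded RNA) 0.662 and 0.689 RPKM, and *Eif2ak4* (GCN2, which senses uncharged tRNA) 0.313 and 0.249 RPKM. Of these 3 only *Eif2ak2* overlapped between groups, while *Eif2ak1* and *Eif2ak4* were lower in both HiGlu libraries. The same held for 38.2% of the 26272 entries with any read, so this says little about these kinases. Of the 6 kinases and GCN2 regulators, 3 were tested, 1 fell and none rose, with a median log2 fold change of −0.00. *Impact*, an inhibitor of GCN2, fell from 5.77 and 5.74 RPKM to 3.83 and 3.49 RPKM (log2 fold change −0.59, adjusted p = 0.00556), while the GCN2 partner *Gcn1l1* had a log2 fold change of 0.02 (adjusted p = 0.837).

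*Atf4* encodes the bZIP activator whose translation defines the response. The gene lies on chromosome 15 (80085614 to 80087970, plus strand, 3 exons, NCBI build 37). It measured 136.5 and 129.5 RPKM in the LoGlu libraries and 79.6 and 75.4 RPKM in the HiGlu libraries. Both HiGlu libraries were well below both LoGlu libraries, and the replicates differed by little. The mean went from 133 ± 4.97 to 77.5 ± 3.02 RPKM (SD, n = 2), which is 58.3% of the LoGlu level, and *Atf4* fell by a log2 fold change of −0.78 ± 0.13 (SE, adjusted p = 0.00537). It stayed past the threshold in all 15 alternatives tried, with adjusted p-values between 3.17e-06 and 0.0392.

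*Atf5*, a bZIP activator that is translated under the same control as *Atf4*, lies on chromosome 7 (52067627 to 52072028, minus strand). It measured 40.3 and 37.2 RPKM in LoGlu and 27.5 and 25.0 RPKM in HiGlu. The groups did not overlap in its other entry either, at 35.8 and 32.8 against 24.5 and 22.6 RPKM. *Atf5* fell to 67.8% of its LoGlu mean (log2 fold change −0.55 ± 0.13, SE, adjusted p = 0.0180). The call held in 14 of 15 alternatives and was lost without the second HiGlu library (adjusted p = 0.146). The overlapping genes on the opposite strand were low, with *Nup62* at 2.98 to 3.43 RPKM (log2 fold change −0.10, adjusted p = 0.438) and *Il4i1* at 0.692 to 1.01 RPKM.

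*Ddit3* encodes CHOP, a bZIP protein that dimerizes with C/EBP factors and is known for its part in cell death under lasting ER stress. It lies on chromosome 10 (126727830 to 126733344, plus strand, 4 exons). It measured 71.4 and 65.4 RPKM in LoGlu, about 22938 and 18649 reads, and 10.1 and 8.34 RPKM in HiGlu, about 3366 and 2326 reads. The HiGlu libraries stood far below the LoGlu libraries, and the replicates of each group lay close together. The mean was 7.42-fold lower at HiGlu (68.4 ± 4.28 against 9.22 ± 1.24 RPKM, SD, n = 2), a log2 fold change of −2.83 ± 0.14 (SE), which had rank 3 from the lowest among 6845 genes with 1 entry per gene. *Mars*, which overlaps *Ddit3* by 68 bases on the opposite strand, measured 7.10 and 6.68 RPKM in LoGlu and 4.48 and 4.33 RPKM in HiGlu (log2 fold change −0.59, adjusted p = 0.00569), a level far under that of *Ddit3* in LoGlu.

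*Cebpb* encodes C/EBPβ, a bZIP partner of both ATF4 and CHOP, and is a gene of a single exon on chromosome 2 (167514415 to 167515918, plus strand). It measured 14.6 and 10.8 RPKM in LoGlu and 9.80 and 8.77 RPKM in HiGlu. The LoGlu libraries lay further apart than the distance from the lower of them to the HiGlu libraries. Its log2 fold change was −0.42 (95% confidence interval −0.80 to −0.04, adjusted p = 0.0813) at 73.0% of the LoGlu mean. It passed the threshold in 4 of 15 alternatives, among them the fit without the second LoGlu library, which holds no spread between LoGlu libraries. The log2 fold change was −0.63 in that fit and −0.22 without the first LoGlu library. *Tmem189*, which covers 908 bases of *Cebpb* on the opposite strand, measured 0.579 and 0.587 RPKM in LoGlu and 0.779 and 0.721 RPKM in HiGlu, and was not tested.

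*Atf3*, a bZIP repressor induced by many stresses, was the lowest of the set, on chromosome 1 (192994175 to 193007219, minus strand, 4 exons). It measured 1.07 and 0.843 RPKM in LoGlu and 0.8125 and 0.566 RPKM in HiGlu, which are about 815 and 570 against 642 and 374 reads over a long span. The gap between the lower LoGlu and the higher HiGlu library was 0.0304 RPKM, much less than the distance between replicates. Without a minimum level its log2 fold change was −0.30 (adjusted p = 0.268), whereas voom on reconstructed reads gave −0.48 (adjusted p = 0.0284). A difference in *Atf3* thus rests on the choice of test.

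The phosphatase that reverses eIF2 phosphorylation takes its specificity from either of 2 subunits, and these differed in their change. *Ppp1r15a* encodes GADD34, the inducible subunit of the feedback loop, on chromosome 7 (52778286 to 52781638, minus strand). It measured 53.5 and 49.6 RPKM in LoGlu and 16.5 and 13.4 RPKM in HiGlu, 3.45-fold lower in the mean (51.5 ± 2.82 against 15.0 ± 2.19 RPKM, SD, n = 2) with a log2 fold change of −1.76 ± 0.15 (SE). *Tulp2*, on the opposite strand over 717 bases of it, measured 4.45 to 5.71 RPKM and had a log2 fold change of −0.23 (adjusted p = 0.116). Both HiGlu libraries were far below both LoGlu libraries.

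*Ppp1r15b* encodes CReP, the constitutive subunit, on chromosome 1 (135027720 to 135036377, plus strand). It measured 10.3 and 10.2 RPKM in LoGlu and 8.36 and 7.47 RPKM in HiGlu, so the groups did not overlap but lay close. *Ppp1r15b* fell to 77.0% of its LoGlu mean (log2 fold change −0.36 ± 0.11, SE, adjusted p = 0.0475). This call is fragile, since it held in 8 of 15 alternatives and was lost without any 1 of the 4 libraries (adjusted p from 0.0706 to 0.304). Within each library, *Ppp1r15a* was 5.18 and 4.86 times *Ppp1r15b* per kilobase of span in LoGlu and 1.98 and 1.80 times in HiGlu.

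*Trib3* encodes a pseudokinase that CHOP and ATF4 induce and that dampens their activity and AKT signalling. It lies on chromosome 2 (152163158 to 152169768, minus strand). It measured 25.2 and 24.0 RPKM in LoGlu and 6.20 and 5.65 RPKM in HiGlu, 4.15-fold lower in the mean (24.6 ± 0.849 against 5.92 ± 0.395 RPKM, SD, n = 2), with a log2 fold change of −1.96 ± 0.12 (SE). The groups stood far apart and the replicates were tight. Its ratio to *Atf4* was 0.184 and 0.185 in the LoGlu libraries and 0.0779 and 0.0749 in the HiGlu libraries.

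*Nupr1*, a small chromatin-associated protein induced by ATF4, was the most abundant of the set at LoGlu. It lies on chromosome 7 (133766763 to 133770524, minus strand). It measured 181.0 and 180.1 RPKM in LoGlu and 45.0 and 59.4 RPKM in HiGlu. The HiGlu libraries were low but differed more from each other than those of the other strongly lower genes. The mean was 3.46-fold lower (181 ± 0.574 against 52.2 ± 10.2 RPKM, SD, n = 2), with a log2 fold change of −1.79 ± 0.16 (SE).

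*Chac1* encodes an enzyme that degrades glutathione and is a known target of ATF4, on chromosome 2 (119176965 to 119180117, plus strand). It measured 16.5 and 15.2 RPKM in LoGlu and 13.6 and 14.6 RPKM in HiGlu. The groups did not overlap, but the gap of 0.591 RPKM between them was less than the distance between replicates. The log2 fold change was −0.16 (95% confidence interval −0.44 to 0.12, adjusted p = 0.330), and it passed the threshold in none of the 15 alternatives (adjusted p from 0.182 to 0.705). The lower bound of this interval lies above the fold changes of *Ddit3*, *Trib3*, *Nupr1*, *Ppp1r15a*, *Atf4* and *Atf5*. These have errors of their own, and the interval of *Atf5* (−0.86 to −0.25) overlaps that of *Chac1*. The differences between genes were not tested.

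**Figure D2:**
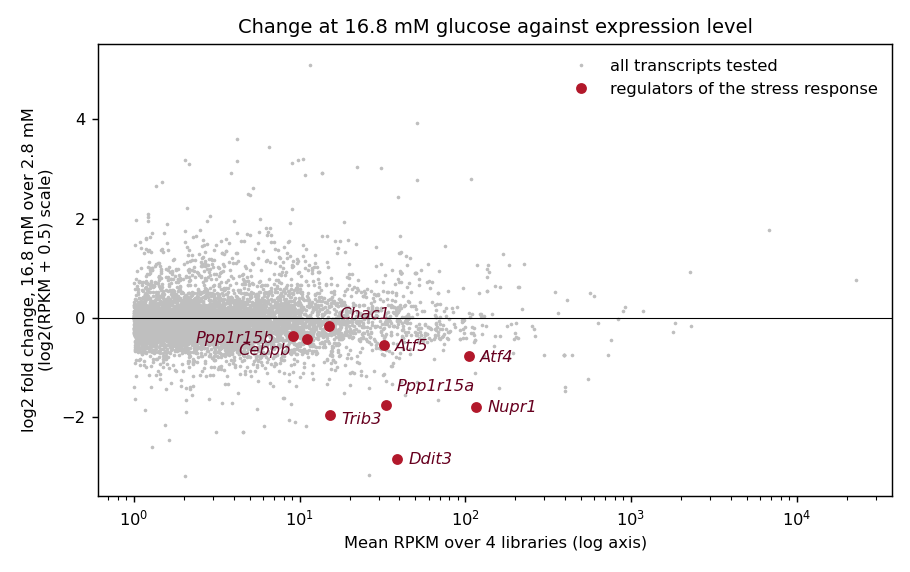
Log2 fold change (HiGlu over LoGlu, log2(RPKM + 0.5) scale) against mean RPKM over the 4 libraries on a log axis, for the 7867 transcripts tested (grey) and the 9 regulators tested (red). *Ddit3* lies at −2.83, *Trib3*, *Nupr1* and *Ppp1r15a* lie between −1.96 and −1.76, and *Chac1* sits within the cloud at −0.16.

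Ratios within a library do not depend on its depth, and they set the changes given above against each other. *Ddit3* over *Atf4* was 0.523 and 0.505 in the LoGlu libraries and 0.127 and 0.111 in the HiGlu libraries. *Ddit3* over *Cebpb*, both partners in the same dimers, was 4.90 and 6.03 in LoGlu and 1.03 and 0.951 in HiGlu. *Nupr1* over *Atf4* was 1.33 and 1.39 in LoGlu and 0.565 and 0.789 in HiGlu. The ratios to *Atf4* moved the other way for *Chac1* (0.121 and 0.117 against 0.171 and 0.194) and for *Atf5* (0.295 and 0.287 against 0.345 and 0.332). *Chac1* over *Ddit3* went from 0.231 and 0.232 to 1.35 and 1.75. In none of these ratios did the LoGlu and HiGlu libraries overlap, and no test was run on them. Such a lack of overlap is common, since 48.3% of transcripts tested were lower and 22.2% higher in both HiGlu libraries. The share over all gene pairs was not computed.

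**Figure D3:**
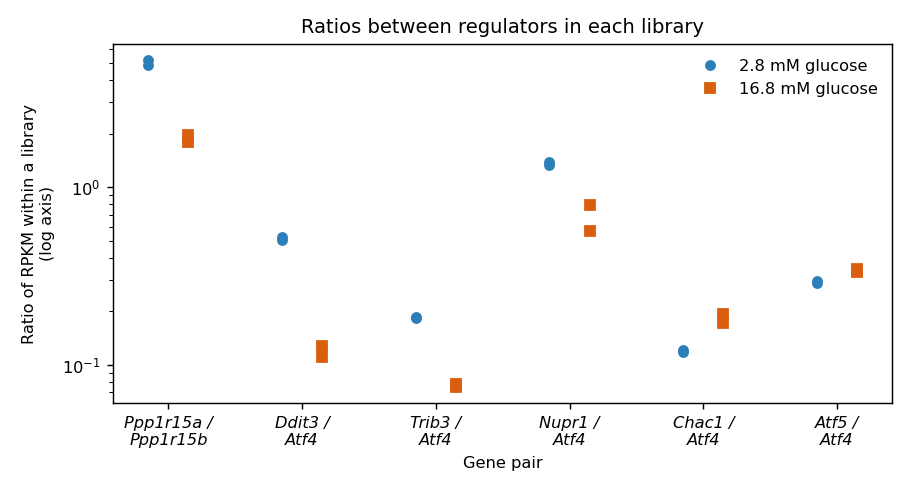
Ratio of the RPKM of 2 regulators within each library on a log axis, for 6 gene pairs. Blue circles are the LoGlu libraries and orange squares the HiGlu libraries. The ratio is lower in HiGlu for *Ppp1r15a* over *Ppp1r15b* and for *Ddit3*, *Trib3* and *Nupr1* over *Atf4*, and higher for *Chac1* and *Atf5* over *Atf4*.

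The order of the regulators by level per kilobase of span differed between LoGlu and HiGlu, and this scale depends on the introns of each gene. Per kilobase of span in LoGlu it was *Nupr1*, *Atf4*, *Ddit3*, *Ppp1r15a*, *Atf5*, *Trib3*, *Chac1*, *Cebpb*, *Ppp1r15b* and *Atf3*, and *Cebpb* and *Ppp1r15b* differed by less than the SD of *Cebpb*. In HiGlu it was *Atf4*, *Nupr1*, *Atf5*, *Ppp1r15a*, *Chac1*, *Cebpb*, *Ddit3*, *Ppp1r15b*, *Trib3* and *Atf3*. There *Ppp1r15a* overlapped with *Chac1*, *Cebpb* with *Ddit3*, and *Ddit3* with *Ppp1r15b*. Introns lengthen the span of *Ddit3* 6.20-fold over its exons and that of *Atf3* 6.58-fold. Rescaled to exon length, on the assumption that all reads fell in exons, *Nupr1* averaged 485 RPKM in LoGlu and 140 RPKM in HiGlu, *Ddit3* 423 and 57.0, and *Atf4* 182 and 106. On that scale *Trib3* averaged 80.4 and 19.4 RPKM, *Ppp1r15a* 61.5 and 17.8, *Chac1* 29.8 and 26.6, *Ppp1r15b* 15.9 and 12.2, *Cebpb* 12.8 and 9.37, and *Atf3* 6.29 and 4.53 RPKM. The order on this scale was another one. *Nupr1* was the highest rescaled gene in both groups, and *Ddit3* lay above *Atf4* in LoGlu and below it in HiGlu. *Trib3* lay above *Ppp1r15a* in the mean of both groups, but the HiGlu libraries of these genes overlapped (20.3 and 18.5 against 19.7 and 16.0 RPKM). For *Nupr1* the rescaling took a RefSeq span of 2225 bases but the exons of a GENCODE gene of 3762 bases, so its rescaled level is less certain. *Atf5* was not rescaled, because the spans of its entries differ.

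Transcripts were also ranked by the likeness of their pattern to that of *Ddit3*, as the Euclidean distance between centred log2(RPKM + 0.5) values over the 4 libraries, among 6844 other genes with 1 entry each. The nearest were the microRNA genes *Mir710* (distance 0.414, about 29 and 20 reads in LoGlu) and *Mir3109* (0.425, 16 and 9 reads), both listed at 0 in HiGlu and resting on few reads. Genes ranked here had to average 1 RPKM, and both microRNA genes met this through LoGlu alone, which by itself selects such a pattern. *Cyb5r1*, a reductase gene, followed at 0.662 with 18.2 and 18.0 RPKM in LoGlu and 3.94 and 3.34 RPKM in HiGlu, then *Entpd2*, an ectonucleotidase gene, at 0.668 with 10.1 and 10.4 against 2.19 and 1.60 RPKM. A lncRNA on chromosome 16 was next at 0.672, with 2.88 and 2.82 RPKM in LoGlu and 0.301 and 0.197 RPKM in HiGlu. This lncRNA also met the minimum through LoGlu alone. Of the regulators, *Trib3* ranked 9, *Ppp1r15a* 13 and *Nupr1* 15, while *Atf4* ranked 193, *Atf5* 529, *Cebpb* 1004, *Ppp1r15b* 1268 and *Chac1* 3016. Over 4 libraries in 2 groups, this distance mostly ranks genes by the size of the difference between groups.

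The rest of the pathway was read from 5 textbook lists, which were written with earlier results of these data known. Over all transcripts tested, 22.8% passed the threshold lower at HiGlu and 10.7% higher, and no list was tested against these shares. Of the 12 genes for eIF2, its exchange factor eIF2B and the catalytic subunits of protein phosphatase 1, 11 were tested, 3 fell and 1 rose, with a median log2 fold change of −0.05. *Eif2s3x*, the gamma subunit of eIF2, fell from 4.91 to 3.45 RPKM (−0.45, adjusted p = 0.0151), *Ppp1cb* from 6.91 to 5.06 RPKM (−0.41, adjusted p = 0.0217) and *Eif2a*, an alternative initiation factor, from 1.89 to 1.32 RPKM (−0.39, adjusted p = 0.0211). *Ppp1cc* rose from 3.22 to 4.47 RPKM (0.42, adjusted p = 0.0284). The log2 fold changes of this list thus lay between −0.45 and 0.42, against −1.76 for *Ppp1r15a*. After median centring or quantile normalization, 3 genes of this list were lower and 2 higher.

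Of 19 other bZIP factors, 12 were tested, 3 rose and 2 fell, with a median log2 fold change of −0.06. *Cebpd*, a C/EBP factor of acute responses, rose from 2.92 to 15.1 RPKM (2.18, adjusted p = 1.19e-04), *Fos* from 0.801 to 4.93 RPKM (2.05, adjusted p = 2.19e-04) and *Junb* from 9.56 to 24.3 RPKM (1.30, adjusted p = 0.00139), the last 2 being subunits of AP-1. *Fos* lay under 1 RPKM in both LoGlu libraries (0.757 and 0.846 RPKM) and met the minimum level through HiGlu alone. *Nfe2l1*, an activator of proteasome genes, fell from 48.2 to 24.3 RPKM (−0.97, adjusted p = 0.00238). The other fall was that of *Cebpg*, a dimer partner of ATF4, from 8.91 to 5.03 RPKM (−0.77, adjusted p = 0.00336), named after its values were seen. After median centring 2 of these factors were lower and 4 higher, and after quantile normalization 3 were lower and 4 higher. Among the bZIP genes tested here, log2 fold changes ranged from −2.83 for *Ddit3* to 2.18 for *Cebpd*. Over all transcripts, 22.8% were lower and 10.7% higher past the threshold in the reported fit.

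Of 36 textbook targets of ATF4 and CHOP outside the set, 29 were tested, 16 fell and 2 rose, with a median log2 fold change of −0.39. The other 11 did not pass the threshold, among them *Asns* (−0.14, adjusted p = 0.344), *Phgdh* (−0.11, 0.359), *Psph* (−0.07, 0.583) and *Psat1* (−0.00, 0.969), named after their values were seen. *Slc3a2*, the heavy chain of amino acid exchangers, fell from 64.5 to 21.7 RPKM (−1.55, adjusted p = 4.6e-04). The stress hormones *Fgf21* and *Gdf15* fell from 1.62 to 0.435 RPKM (−1.17, adjusted p = 5.95e-04) and from 4.88 to 2.10 RPKM (−1.05, adjusted p = 8.77e-04). *Fgf21* lay under 1 RPKM in both HiGlu libraries and met the minimum level through LoGlu alone, as did *Slc7a1* and *Bbc3*, which are counted among the falls. *Ddit4*, an inhibitor of mTORC1, rose from 14.5 to 27.1 RPKM (0.89, adjusted p = 0.00334), and so did *Ero1l*, an oxidase of the ER, from 6.84 to 10.2 RPKM (0.55, adjusted p = 0.0290), a gene chosen once the values were known. After median centring 16 of these targets were lower and 2 higher, and after quantile normalization 16 were lower and 1 higher. With at least 1 RPKM required in every library, 15 of the list passed the threshold in either direction, against 18 in the reported fit.

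Of 24 genes of the IRE1 and ATF6 branches of the unfolded protein response, 22 were tested, 16 fell and none rose, with a median log2 fold change of −0.69. The chaperone gene *Hspa5* fell from 616.6 and 554.3 RPKM to 217.8 and 205.5 RPKM (−1.46, adjusted p = 5.8e-04). *Derl3*, of ER-associated degradation, fell from 4.55 to 1.14 RPKM (−1.63, adjusted p = 1.16e-04), the chaperone *Calr* from 231.5 to 86.5 RPKM (−1.42, adjusted p = 6.63e-04) and *Sdf2l1* from 52.1 to 20.4 RPKM (−1.33, adjusted p = 8.57e-04). *Xbp1*, the transcription factor spliced by IRE1, measured 32.2 and 31.7 RPKM in LoGlu and 36.0 and 32.9 RPKM in HiGlu (0.11, adjusted p = 0.544), named after its values were seen. Under both scalings 17 genes of this list were lower and none higher.

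**Figure D4:**
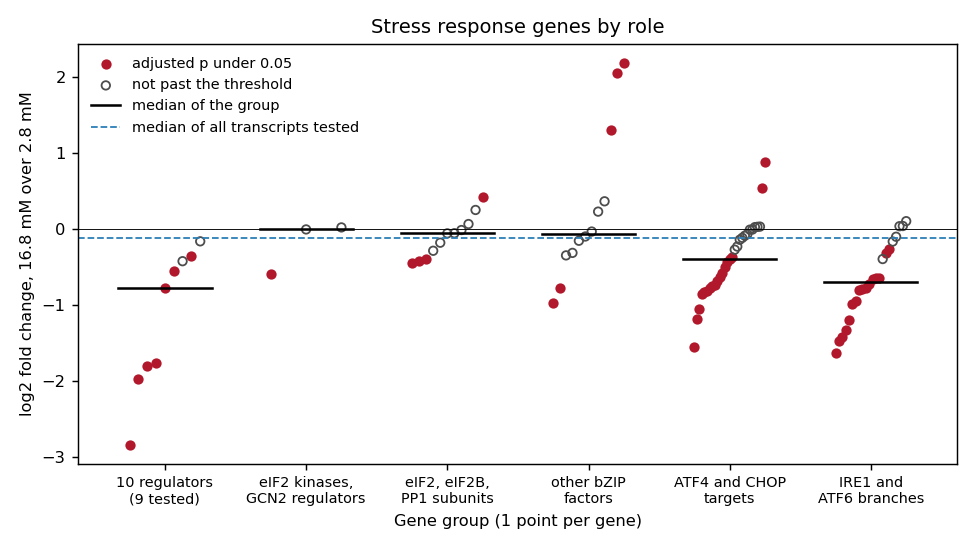
Log2 fold change (HiGlu over LoGlu) of each tested gene, by role, with filled red points for adjusted p under 0.05, open points for genes that did not pass it, black bars for the median of a group and a dashed line for the median of all transcripts tested (−0.11). The regulators spread from −2.83 to −0.16, the kinase list (median −0.00) and the eIF2 list (median −0.05) lie between −0.59 and 0.42, and the targets and the IRE1 and ATF6 genes lie mostly below it.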

How the data were processed

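RNA-seq of 4 islet libraries (2 LoGlu, 2 HiGlu, grouped by the sample titles) was read from a single table in which the authors deposited RPKM values for 33923 entries, of which 28047 were distinct and used once. The submitters' processing notes name STAR, bedtools, DESeq and the mm9 genome. The methods describe these steps for sorted cells and do not describe the islet libraries apart. Strand of the counting is not given in the sources used here. All sample columns were used. Depth was recovered as the value at which low RPKM values became whole reads: 85.6% to 86.9% of 903 to 995 low genes per library were within 0.05 of a whole read over their RefSeq span. For genes with introns, 76.6% to 79.2% were whole over the span and 8.70% to 11.7% over the exons. Reads given for a gene are estimates from these depths and RefSeq span lengths, and precision is limited more by having 2 libraries per group than by depth.

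Values were taken to log2(RPKM + 0.5), which understates changes of low genes, and those averaging 1 RPKM or more entered a fit in limma 3.58.1 under R 4.3.3 (variance trend, empirical Bayes, Benjamini-Hochberg adjustment at 0.05). The fit was also run on simulated reads, drawn independently for each library with the same dispersion for every gene. That setting is simpler than these data, so no conclusion is drawn from it here. The study's count test could not be the main test, as the table holds RPKM. Summaries used Python 3.11.15, pandas 2.3.3 and numpy 2.4.6, and figures matplotlib 3.10.9. Gene coordinates are those of GENCODE on NCBI build 37 (mm9), and promoter sequences are from RefSeq on GRCm38.p6. The regulators, the gene lists and the motifs were chosen with earlier results of these data known. Named genes are the 10 regulators, all kinases and GCN2 regulators, the 4 largest absolute log2 fold changes among tested genes of each other pathway list, genes overlapping a regulator, and the 5 nearest patterns to *Ddit3*. The marker lists are reported by their counts and sums. *Ins1*, *Ins2*, *Cebpg*, *Ero1l*, *Xbp1*, *Slc7a1*, *Bbc3*, *Asns*, *Psat1*, *Phgdh* and *Psph* are outside this rule and were chosen after their values were seen.

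Alternatives were a fit with no variance trend, quantile normalization, centring on library medians, 0.1 or 1 RPKM added, no minimum, 1 RPKM in every library, the replicate block, each library left out, all entries as deposited, and voom on reconstructed reads of genes with at least 80 reads in all. A fit with 1 entry per gene was added after the data were seen. A fit with 1 library left out keeps a single library in that group, so its p-values hold no spread between libraries of that group.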

Additional observations from a re-analysis of the deposited data

How the results depend on the processing

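The count of regulators past the threshold (7 of 9 in the reported fit) lay between 5 and 9 over the alternatives (9 of 10 with voom, which tested *Atf3*), from 5 to 7 with 1 library left out, and no fold change of a regulator changed sign. The count over all transcripts (2628 of 7867) moved most with the replicate block (4067) and with voom on reconstructed reads, which tested more transcripts (7311 of 17303), and was 1825 to 2579 with 1 library left out. The pathway lists held 44 genes past the threshold, 65 with voom and 38 to 45 with 1 library left out. Within lists, the bZIP factors went from 5 to 8 with the block, 8 without the first LoGlu library and 12 with voom, and the eIF2 group from 4 to 1 or 2 without the first LoGlu library or either HiGlu library and to 7 with voom. The kinases and GCN2 regulators went from 1 to 3 with voom. The cause of these shifts was not tested. *Atf5* lost its call without the second HiGlu library. *Ppp1r15b* lost it with 0.1 RPKM added (adjusted p = 0.0507), with no minimum (0.0730), with 1 entry per gene (0.0504) and without any single library. *Cebpb* gained a call without the second LoGlu library, with 1 RPKM in every library (0.0202), with voom (0.0171) and with the block (0.0356). The replicate numbers come from the labels and the libraries share only a number, with 2 pairs whose deviations from their group means correlated at 0.31. Otherwise the block changed no call of a regulator. Of the cell type markers, it called all 7 tested acinar and duct markers higher at HiGlu (0 of 7 in the reported fit), and 1 alpha cell marker lower and 2 higher (0 of 5). *Atf3* lies near 1 RPKM, and its difference was not detectable without reconstructed reads.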
